A study of Homo sapiens with 23 samples.

Results

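The 10 genes described here encode enzymes that make or use short-chain acyl-CoAs: ACSS1, ACSS2, ACSS3, ACSM3, ACLY, PCCA, PCCB, MMUT, ACADS and CRAT. They were chosen by name, as a metabolic group, and each was read over its GENCODE v44 gene body with 1 kb on both sides (the gene window). They are 10 of the 20033 protein-coding genes that were read in the same way. The data were ChIP-seq region lists from SW480, a colorectal cancer cell line of colon epithelial origin. The cells had received sodium propionate at 10 mM (NaPr), sodium butyrate at 1 mM (NaBu) or no salt, and exposure lasted 12 to 16 h. Propionylated histone (H3K18pr and H4K12pr) was precipitated from NaPr cells, butyrylated histone (H3K18bu and H4K12bu) from NaBu cells, and acetylated histone (H3K18ac and H4K12ac) from all 3 kinds of cells. These made 10 groups of 2 replicates, beside 1 input library of unprecipitated chromatin per treatment. All groups came from 1 cell line, the labels do not say whether the replicates were separate cultures, and propionyl or butyryl libraries from untreated cells were not analysed here.

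A fatty acid has to be joined to coenzyme A before it can be oxidised or placed on a histone lysine, and acyl-CoA synthetases carry out that step. ACSS2 works in the cytosol and nucleus, whereas ACSS1, ACSS3 and ACSM3 are mitochondrial. ACLY supplies acetyl-CoA from citrate, the 2 subunits PCCA and PCCB form propionyl-CoA carboxylase, MMUT carries the product on to succinyl-CoA, ACADS oxidises butyryl-CoA, and CRAT exchanges short acyl groups between CoA and carnitine. Colon epithelium is known to use butyrate from the gut as a fuel.

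The 20 immunoprecipitated lists held 8158 to 208823 regions and the 3 input lists 30386 to 93923, and median region widths differed too, so covered shares were not on 1 scale across libraries. Values are given as the percent of the gene window covered by regions (the covered share) and, where the scale matters, as the gene's percentile among all 20033 genes of the same library. A gene without a region has percentile 0. The share of all genes with a region ran from 18.3% (H4K12bu replicate 2) to 85.6% (H3K18ac untreated replicate 2). In the short lists a gene with 1 small region therefore takes a high percentile, so percentiles do not fully remove differences in list length. Replicates shared 11.4% to 39.8% of the bases found in either list. H3K18ac NaPr replicate 1 stood apart. It held 202787 regions against 95194. It shared 20.2% with its own replicate, but 33.2% and 26.8% with the untreated H3K18ac libraries. With the untreated H4K12ac libraries it shared 31.4% and 30.6%. H3K18ac NaPr replicate 2 also shared more with the untreated H3K18ac libraries (29.4% and 25.0%) than with its own replicate. With the untreated H4K12ac libraries replicate 2 shared 18.8% and 19.8%. H4K12ac NaBu replicate 2 stood apart as well. It held 11680 regions against 88658 and shared 12.5% with its own replicate, but 35.1% and 29.2% with the H4K12bu libraries and 31.1% with H3K18bu replicate 1. The counts of the comparisons below are given with and without these 2 libraries. The H4K12ac NaPr replicates shared the least of any group, 11.4%. Their replicate 1 shared 12.7% and 12.8% with the untreated H4K12ac libraries, and replicate 2 shared 10.2% and 10.3%. Counts that use the H4K12ac NaPr group are not given without either of its libraries. The names of the 4 acetyl lists labelled NaBu carry the letters cnt, which the untreated acetyl lists also carry and the butyryl lists do not. The labels were followed, and every value of an acetyl library given as NaBu, or as from NaBu cells, means a library labelled NaBu, whose treatment the list names leave in doubt. Of 6 epithelial marker genes, each had a region at its start site in 3 or 4 of the 4 untreated acetyl libraries. In each of these, 61.7% to 67.2% of all genes had one. Over all 12 acetyl libraries the epithelial genes had one in 5 (CDX2) to 12 (KRT18), and the blood markers PTPRC and CD3E in none. The fibroblast gene COL1A1 had one in 3 of the 4 untreated libraries and in 7 of the 12. The fibroblast gene PDGFRB had one in 2 of the 12 and the endothelial gene PECAM1 in 1. The list names also carry date-like tags whose meaning is not stated. Propionyl libraries and the NaPr input share 1 tag, acetyl libraries of NaPr and of untreated cells, with the untreated input, another, and all libraries labelled NaBu yet another. Whatever the tag stands for and the mark cannot be told apart for propionyl against acetyl, nor can the tag and the treatment for NaBu against untreated.

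Shown first are the places of ACSS1, ACSS2, ACLY and MMUT that regions covered in the most immunoprecipitated libraries (13, 16, 11 and 11 of 20), and then the promoters of ACSS1 and MMUT for the letters next to the start, whether or not regions covered them. Capitals mark matches on either strand to 6 short motifs: the SP/KLF GC box GGGCGG, the NF-Y box CCAAT, the ETS motif CCGGAAG, the AP-1 motif TGANTCA, the NRF1 motif GCGCATGC and a sterol element TCACNCCAC. In RefSeq promoters (GRCh38.p14, 250 bases before to 50 after the start), available for 7 of the 10 genes, GGGCGG was found in ACSS1, ACSS2, ACLY, PCCA, MMUT and ACADS. It was also found in 59.2% of all 15345 promoters of protein-coding genes in that table. CCAAT was found in ACSS2, ACLY and MMUT and in 36.6% of all promoters, and CCGGAAG in MMUT and in 14.4%. The other motifs, found in 5.74%, 4.25% and 1.18% of all promoters, were in none of the 7. No matches overlapped in the sequences shown, and a match is a description of the letters only.
ACSS1 intron 2 stretch, hg38 chr20:25032485-25032684, minus strand: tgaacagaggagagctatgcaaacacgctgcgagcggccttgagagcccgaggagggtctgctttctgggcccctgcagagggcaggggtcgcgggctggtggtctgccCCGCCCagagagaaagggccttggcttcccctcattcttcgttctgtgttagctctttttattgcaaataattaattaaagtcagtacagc
ACSS2 stretch upstream of the start, hg38 chr20:34875632-34875831, plus strand: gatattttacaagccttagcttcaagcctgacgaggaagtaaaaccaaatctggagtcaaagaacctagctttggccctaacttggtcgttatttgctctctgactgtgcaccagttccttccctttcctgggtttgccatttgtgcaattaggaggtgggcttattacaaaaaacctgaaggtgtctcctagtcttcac
ACLY intron 1 stretch, hg38 chr17:41918490-41918689, minus strand: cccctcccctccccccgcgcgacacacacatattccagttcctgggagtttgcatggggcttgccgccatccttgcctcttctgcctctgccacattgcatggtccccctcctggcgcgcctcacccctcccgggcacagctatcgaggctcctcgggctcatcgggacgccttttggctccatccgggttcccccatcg
MMUT intron 1 stretch, hg38 chr6:49462808-49463007, minus strand: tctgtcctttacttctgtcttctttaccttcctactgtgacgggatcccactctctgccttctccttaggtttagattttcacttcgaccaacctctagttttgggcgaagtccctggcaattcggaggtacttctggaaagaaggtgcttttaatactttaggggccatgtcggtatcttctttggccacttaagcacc
ACSS1 promoter, chr20:25058090-25058389, minus strand: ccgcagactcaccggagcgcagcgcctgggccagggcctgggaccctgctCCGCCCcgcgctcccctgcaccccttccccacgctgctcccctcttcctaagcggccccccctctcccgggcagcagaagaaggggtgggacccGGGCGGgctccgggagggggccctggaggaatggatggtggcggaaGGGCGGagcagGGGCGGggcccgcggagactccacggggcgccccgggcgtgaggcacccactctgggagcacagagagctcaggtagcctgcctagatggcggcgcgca
MMUT promoter, chr6:49463204-49463503, minus strand: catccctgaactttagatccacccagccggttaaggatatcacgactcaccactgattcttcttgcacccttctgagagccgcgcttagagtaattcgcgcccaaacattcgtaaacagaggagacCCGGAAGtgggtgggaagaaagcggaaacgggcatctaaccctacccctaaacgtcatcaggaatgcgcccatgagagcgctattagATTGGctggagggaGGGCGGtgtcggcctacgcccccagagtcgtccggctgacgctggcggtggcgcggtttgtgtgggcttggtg
The ACSS1 and ACLY promoters were 75.0% and 73.3% G and C, against a median of 63.0% over all promoters, and the MMUT promoter was 57.3%.

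The first question was which of the genes carried each mark at the start of transcription. A start site was called occupied when a region lay within 500 bp of the start of the Ensembl canonical transcript. In untreated cells, 8 of the 10 start sites were occupied in both H3K18ac replicates, beside 62.7% of all genes, and 8 in both H4K12ac replicates, beside 57.8%. Without regions that overlap an input region these were 3 (45.7% of all genes) and 7 (49.4%), and with equal numbers of regions 4 (22.1%) and 0 (17.3%). The other two, ACSS3 and ACSM3, were occupied in none of the 23 libraries. In NaPr cells, 7 start sites were occupied by H3K18ac (49.7% of all genes) and none of the 10 by H4K12ac (13.5%) in both replicates. H4K12pr occupied 6 (44.1%), namely ACSS1, ACLY, PCCA, PCCB, ACADS and CRAT, and H3K18pr occupied 3 (39.2%), namely ACSS1, ACLY and PCCA. In NaBu cells, H3K18ac occupied 5 (38.1%), H4K12ac 2 (11%), and H3K18bu (7.02%) and H4K12bu (4.23%) occupied 0 in both replicates. The NaPr and NaBu inputs had 0 of 10 start sites with a region (4.31% and 1.28% of all genes). The untreated input had 5 (14.6%), those of ACSS1, PCCA, PCCB, ACADS and CRAT. The counts of the 10 genes followed the shares of all genes in most groups, and with 10 genes a count carries little precision.

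**Figure D1:**
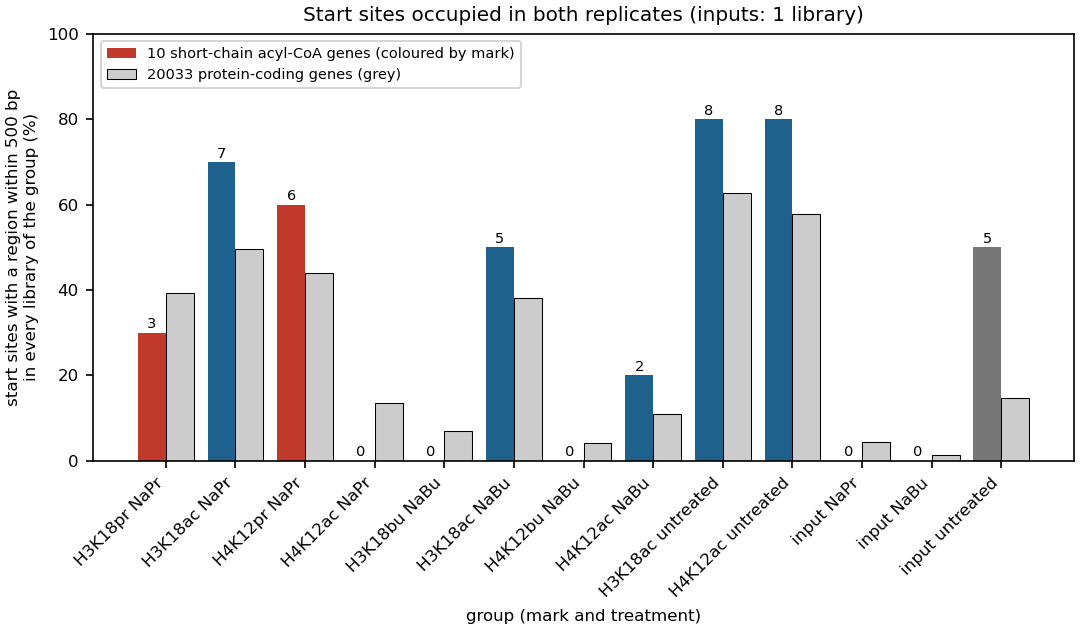
Percent of start sites with a region within 500 bp in every library of a group, for the 10 genes (bars coloured by mark, with the count above each) and for all 20033 protein-coding genes (grey bars). The 10 genes reached 8 in both untreated acetyl groups and 0 in H4K12ac NaPr, H3K18bu and H4K12bu.

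Counted over single libraries, propionyl regions occupied 22 of 40 pairs of start site and library (55.0%, beside 50.7% for all genes), acetyl regions 68 of 120 (56.7%, beside 46.1%), butyryl regions 4 of 40 (10.0%, beside 9.78%) and input regions 5 of 30 (16.7%, beside 6.73%). The 4 butyryl pairs were ACSS2, ACLY and MMUT in H3K18bu replicate 1 and PCCB in H4K12bu replicate 1. When every library was cut to its 8158 strongest regions, ACSS1 was the only one of the 10 with an occupied start site in both replicates of H3K18pr (8.90% of all genes) and of H4K12pr (10.2%).

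ACSS1, the mitochondrial synthetase for acetate, was among the most covered of the 10 genes. Its covered share was 17.6% and 12.7% in the H3K18pr replicates and 35.3% and 18% in the H4K12pr replicates. In the same NaPr cells it was 14.6% and 7.16% with H3K18ac, and 4.54% and 3.87% with H4K12ac. In untreated cells it was 10.2% and 18.2% with H3K18ac, and 10.4% and 9.17% with H4K12ac. The H4K12pr values thus lay above both H4K12ac values of NaPr cells, whereas H3K18pr and H3K18ac overlapped through H3K18ac replicate 1, and both H3K18pr values lay above the other H3K18ac replicate. On the percentile scale, ACSS1 stood at 88.3 and 87.3 for H3K18pr against 71.8 and 81.4 for H3K18ac, and at 90.0 and 83.3 for H4K12pr against 76.0 and 77.9 for H4K12ac, so both propionyl marks lay above their acetyl counterparts. In NaBu cells coverage was low. H3K18ac covered 7.01% and 2.08% of the window and H4K12ac 1.66% and 0%, while H3K18bu covered 0.327% and 0% and H4K12bu 0% and 0.363%. The butyryl values all lay below the 0.575% of the NaBu input.

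The strongest ACSS1 region of NaPr cells was not at the start site but about 25554 bp into the gene, in intron 2, where the sequence printed above lies. A stretch of 212 bp there (chr20:25032479-25032690) was covered in 13 of the 20 immunoprecipitated libraries and in 0 of the 3 inputs. It was covered in 8 of 8 NaPr libraries, 4 of 4 untreated libraries and 1 of 8 NaBu libraries, and it held the gene's best ranked region in 8, 1 and 0 of them. Ranks were taken within each library by the deposited −log10 p. The regions were wide under the propionyl marks, 3169 and 2336 bp for H3K18pr and 3666 and 2881 bp for H4K12pr, with fold enrichments of 22.3, 19.3, 10.4 and 10.4. Under the acetyl marks of NaPr cells they were 244 to 1157 bp wide, with H3K18ac fold enrichments of 5.74 and 3.28 and H4K12ac ones of 2.78 and 2.74. In untreated cells H3K18ac regions there were 2899 and 1655 bp wide with folds of 15.6 and 7.32, so a wide region was also found without propionate. Although no input region covered the 212 bp themselves, the regions of all 4 propionyl libraries, of H3K18ac NaPr replicate 2 and of both untreated H3K18ac libraries overlapped a region of the untreated input elsewhere along their length. Regions that overlapped the input made up 22.4% to 57.9% of the covered bases of ACSS1 in the propionyl libraries and 94.1% and 38.8% in the untreated H3K18ac libraries, and without them the start site was no longer occupied in both H3K18pr replicates. The part of input signal in these values was not tested. The propionyl regions ranked at 1.05% to 2.63% of their lists, H3K18ac NaPr at 1.62% and 8.83%, H4K12ac NaPr at 2.71% and 1.89%, and the untreated acetyl regions at 1.42% to 4.65%, so the acetyl regions there ranked about as high. Fold enrichments were computed by the peak caller within each library and are not on a scale shared between libraries.

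**Figure D2:**
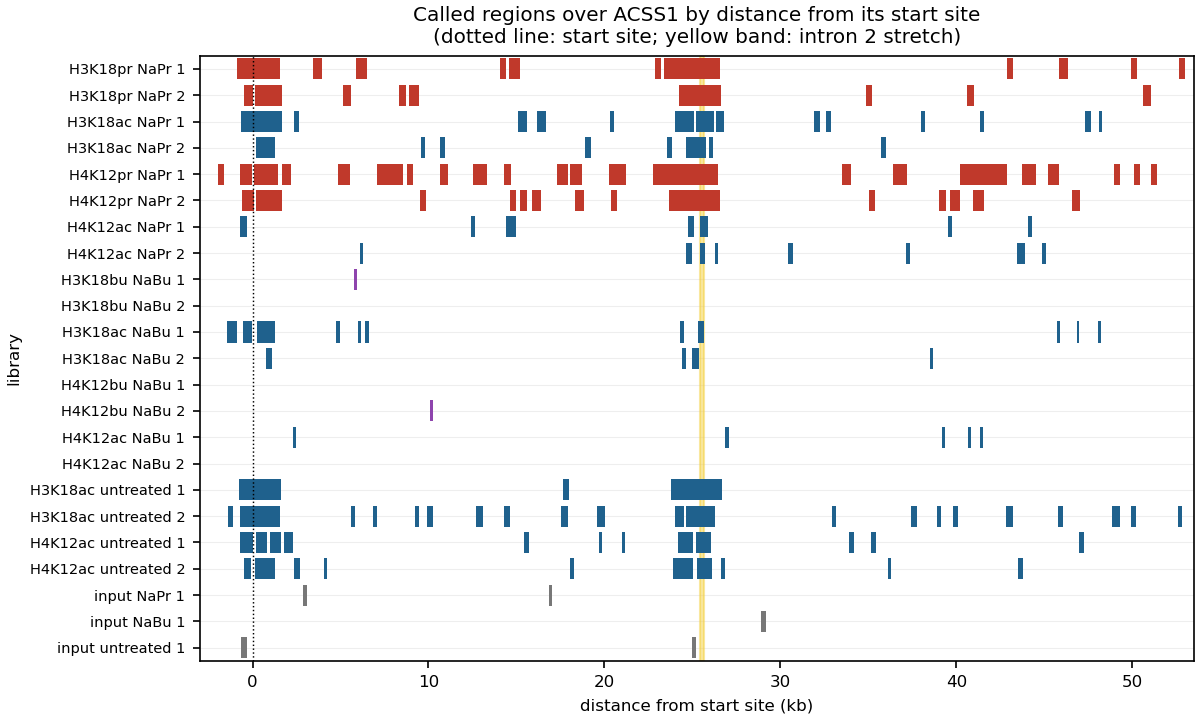
Called regions over ACSS1 in the 23 libraries, by distance in kb from the canonical start site (dotted line), coloured red for propionyl, purple for butyryl, blue for acetyl and grey for input. The yellow band is the intron 2 stretch, covered in 8 of 8 NaPr, 4 of 4 untreated and 1 of 8 NaBu libraries.

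ACSS2, the synthetase that makes acetyl-CoA from acetate in the cytosol and nucleus, was the only one of the 10 besides PCCA with a region in all 20 immunoprecipitated libraries. Its covered share was 4.85% and 3.17% for H3K18pr, 10.4% and 8.42% for H4K12pr, 14.1% and 4.39% for H3K18ac NaPr, and 6.94% and 5.20% for H4K12ac NaPr. The H3K18ac value without replicate 1 lay between the 2 H3K18pr values. As percentiles, ACSS2 stood lower under H4K12pr (59.4 and 65.5) than under H4K12ac of NaPr cells (86.6 and 85.1), the opposite order to the covered shares. The best ranked ACSS2 regions of 6 of the 8 NaPr libraries were in intron 2. Untreated H4K12ac gave 17.1% and 10.2%, above the 3.38% and 0.796% of NaBu cells. ACSS2 also had the most even butyryl coverage, 0.704% and 0.398% for H3K18bu and 0.405% and 0.431% for H4K12bu, each above the 0.256% of the NaBu input and each from a single region. Their summits lay between −943 and −632 bp from the canonical start, and 3 of the 4 covered the core of the upstream stretch printed above, the exception being H3K18bu replicate 1. That core was covered in 16 of 20 immunoprecipitated libraries and in 0 inputs. H3K18ac of NaBu cells had its strongest ACSS2 regions there, with folds of 16.9 and 11.4 and ranks of 1720 and 2867. The butyryl regions had folds of 2.45 to 4.00 and ranked from 28.2% to 99.4% down their lists. The gene record starts 4466 bp before the canonical start, and the butyryl summits were 2813 to 3124 bp from the start of GGT7.

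ACSS3, a mitochondrial synthetase with a preference for propionate, and ACSM3, a mitochondrial synthetase for butyrate and medium-chain acids, were the least covered. ACSS3 had 0 regions in 10 of 20 immunoprecipitated libraries and never more than 0.659% of its window covered (H4K12pr replicate 1). The NaPr input covered 0.521%, and only 1 of 8 NaPr libraries exceeded it. ACSM3 ranged from 0% to 1.58%, the highest in H3K18ac untreated replicate 2, and was at 0 in 7 libraries, among them all 4 butyryl libraries. Its best regions in both untreated groups had summits between −22354 and −22329 bp from its canonical start, 133 to 158 bp from that of THUMPD1, a gene inside the ACSM3 window, so those values cannot be assigned to ACSM3.

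ACLY, which splits citrate to give cytosolic acetyl-CoA, was covered most by H4K12pr (23.6% and 17.7%), by H4K12ac of untreated cells (19.9% and 13.3%) and by H3K18ac NaPr replicate 1 (23.8%). The other H3K18ac NaPr replicate gave 2.52%, H3K18pr gave 5.69% and 5.70%, and untreated H3K18ac 5.87% and 5.74%. H4K12ac of NaPr cells gave 6.08% and 6.34%, below both H4K12pr values and both untreated H4K12ac values. As percentiles the order was the opposite. H4K12ac of NaPr cells stood at 83.43 and 89.17, H4K12pr at 81.06 and 82.84, and untreated H4K12ac at 83.40 and 75.27. At the start site itself, the H3K18pr regions ran 1010 and 864 bp, with folds of 8.57 and 8.28. The untreated H3K18ac regions ran 1096 and 973 bp, with folds of 13.6 and 7.69. H4K12pr had 1 region at the start in each replicate (folds 4.2 and 4.38), while H4K12ac NaPr had none in either. H4K12ac in untreated cells was strongest at −11118 and −11324 bp from the canonical start, 548 and 342 bp from the start of ODAD4, so part of the coverage of the ACLY window lies at a neighbouring gene.

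**Figure D3:**
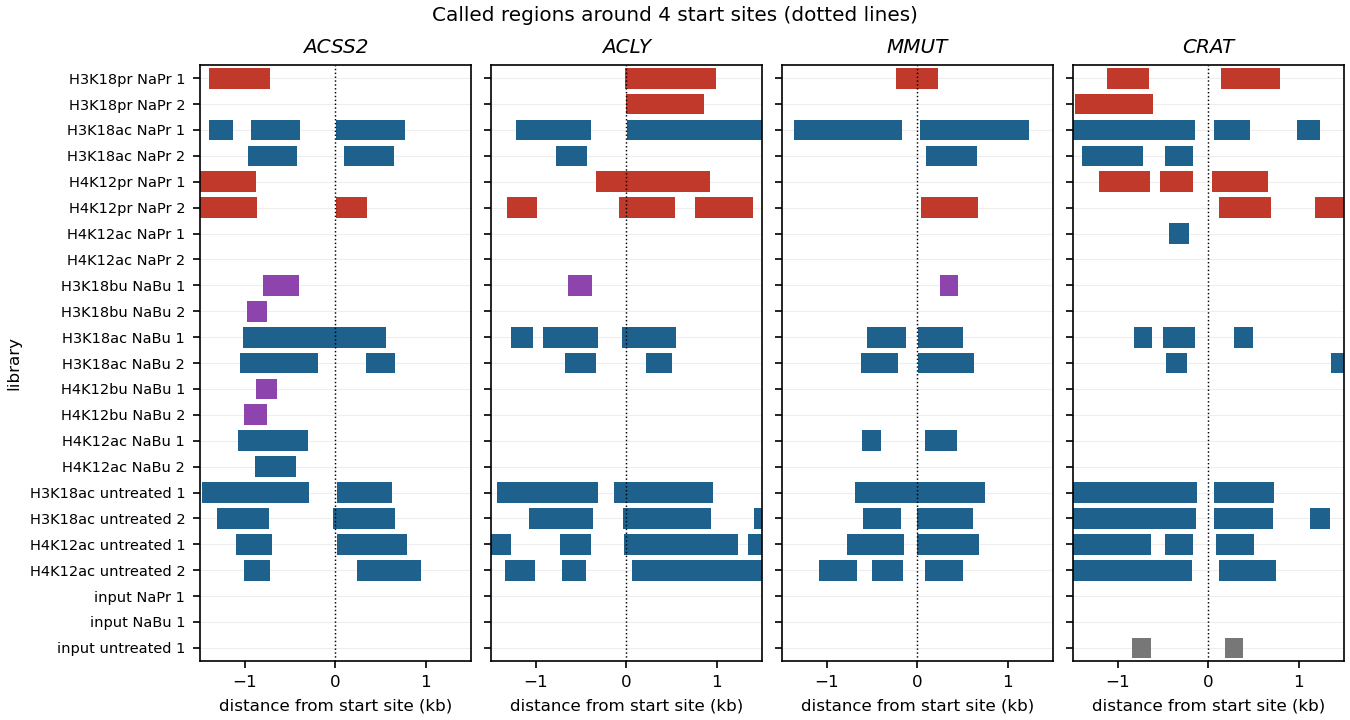
Called regions within 1.5 kb of the start sites (dotted lines) of ACSS2, ACLY, MMUT and CRAT in the 23 libraries, colours as for the ACSS1 map. Untreated acetyl regions lie on both sides of all 4 start sites, and H4K12ac NaPr has 1 region in these windows, near CRAT.

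PCCA and PCCB, the 2 subunits of propionyl-CoA carboxylase, differed from each other. PCCA was covered at 2.1% and 1.48% by H3K18pr, 3.03% and 2.33% by H4K12pr, 2.60% and 2.14% by H3K18ac NaPr and 3.21% and 2.16% by H4K12ac NaPr, a narrow range in a window of 443423 bp. The NaPr input covered 1.74%, the untreated input 0.413% and the NaBu input 0.147%. PCCA was the only one of the 10 with H3K18ac coverage higher in both NaPr replicates than in both untreated replicates (0.771% and 1.22%). It was also the only one higher in both NaBu replicates (1.79% and 1.80%) than in both untreated ones. The NaPr input likewise lay above the untreated input, and the part of input signal in the NaPr difference was not tested. PCCA stood alone in covered share only. As percentiles, H3K18ac of ACSS2, PCCA and PCCB was higher in NaPr than in untreated cells (17.8% of all genes). That of ACSS2, ACLY, PCCA, PCCB, MMUT and ACSM3 was higher in NaBu cells (28.7%). PCCB was covered at 0.759% and 0.741% by H3K18pr but 6.89% and 6.69% by H4K12pr, and at 5.67% and 2.08% by H3K18ac NaPr and 2.55% and 1.71% by H4K12ac NaPr. Propionylation thus lay below acetylation at H3K18 and above it at H4K12 in covered share, also when H3K18ac NaPr replicate 1 was left out. As percentiles the order at H4K12 was lost, with 49.7 and 60.0 for H4K12pr against 60.3 and 56.7 for H4K12ac. The NaPr input covered 2.56% of PCCB, more than both H3K18pr libraries, both H4K12ac NaPr libraries and H3K18ac NaPr replicate 2. Only 3 of 8 NaPr libraries exceeded it. PCCB had no region within 500 bp of its start in either H3K18pr library, and 733 and 1004 bp regions within that distance in the H4K12pr libraries.

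MMUT, the B12-dependent mutase downstream of propionyl-CoA carboxylase, was covered mostly at its start. H3K18pr covered 1.33% and 0% of the window and H4K12pr 0% and 1.82%, so neither propionyl mark was found in both replicates. The NaPr input also covered 1.33%, with no region at the start site. H3K18ac covered 5.83% and 1.63% in NaPr cells, 2.69% and 2.98% in NaBu cells and 4.11% and 2.98% in untreated cells. The H3K18ac start-site regions of NaBu cells had folds of 13.3 and 12.0 and ranked 3542 and 2862 in their lists. H3K18bu covered 0.565% in replicate 1 and 0% in replicate 2, and H4K12bu 0% in both. The best MMUT regions of these H3K18 libraries also lay 222 to 488 bp from the start of CENPQ, which runs in the opposite direction, and the 2 genes cannot be told apart there.

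ACADS, which oxidises butyryl-CoA, had no region in 12 of 20 libraries. Untreated H4K12ac covered 7.76% and 5.41% and untreated H3K18ac 3.18% and 1.77%, with the untreated input at 2.18%. Both H4K12pr libraries had 1 region each (2.88% and 2.27%), where H3K18pr and H4K12ac of NaPr cells had 0% in all 4 libraries. Under butyrate it was covered in 1 of 8 libraries, H3K18ac replicate 1, at 4.23%. Neither butyryl mark was detected on ACADS in any of the 4 libraries at this depth.

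CRAT, carnitine acetyltransferase, was covered most by H4K12pr and by the untreated acetyl marks. Untreated H3K18ac covered 13.1% and 20%, with start-site folds of 17.8 and 13.3, and untreated H4K12ac 12.0% and 15%. H4K12pr covered 25.4% and 8.76%, H3K18pr 7.66% and 4.16%, H3K18ac NaPr 16.7% and 5.23%, and H4K12ac NaPr 1.17% and 0.961%. In NaBu cells H3K18ac covered 4.00% and 2.09%, and H3K18bu, H4K12bu and H4K12ac covered 0% in all 6 libraries. The untreated start-site regions lay 278 to 314 bp from the start of PTPA, inside the CRAT window, and the untreated input covered 2.20%. The NaPr input covered 1.51%, more than both H4K12ac NaPr libraries.

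**Figure D4:**
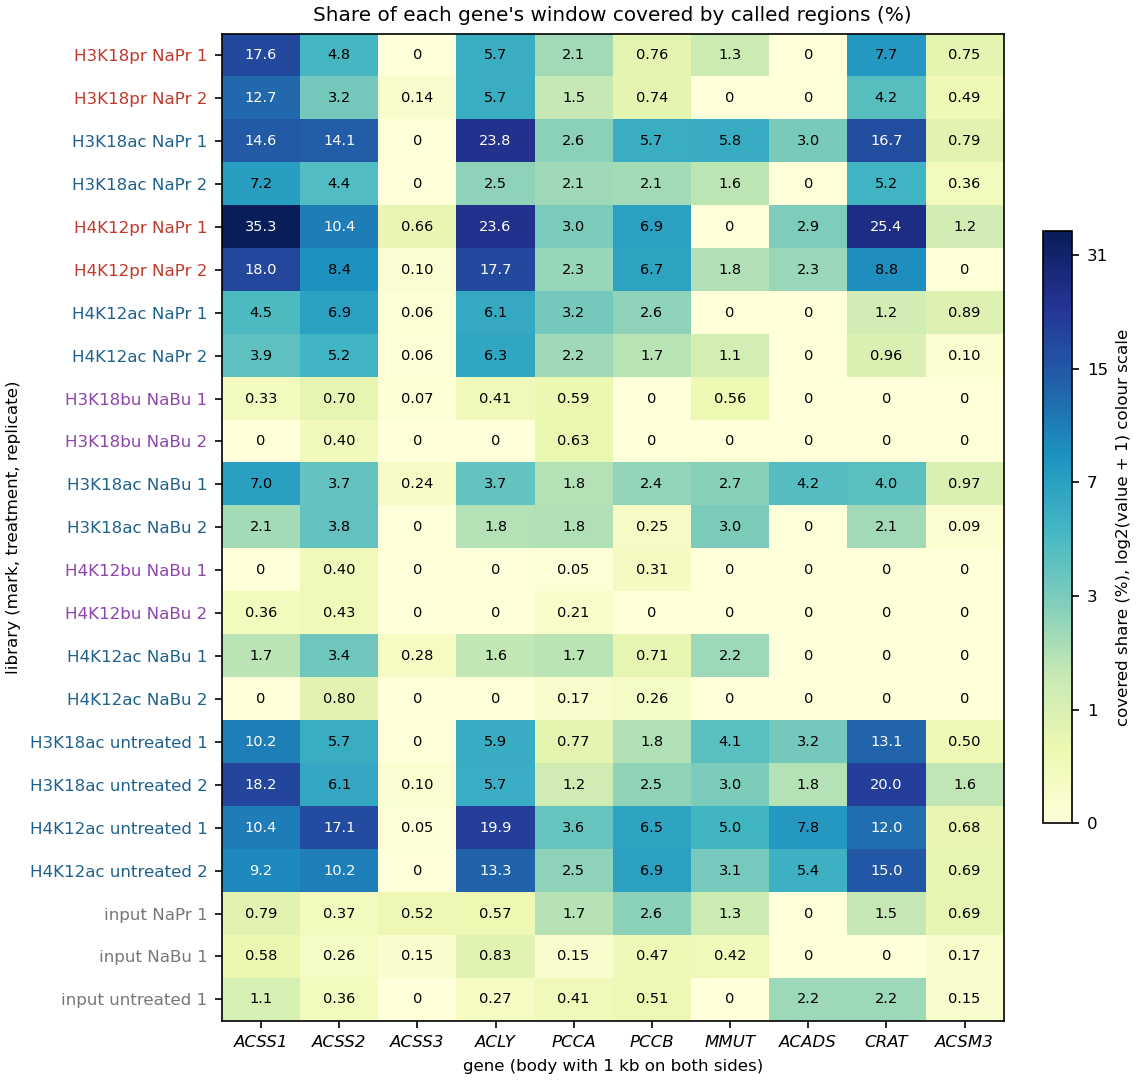
Covered share of each gene window (%) in the 23 libraries, printed in each cell and coloured on a log2(value + 1) scale. ACSS1, ACSS2, ACLY and CRAT hold the high values, up to 35.3% in H4K12pr replicate 1, and the 4 butyryl libraries stay under 1% for all 10 genes.

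Propionyl and acetyl marks were compared within NaPr cells to ask whether these genes favoured 1 of the 2 modifications. At H4K12, 7 of the 10 genes were covered more in both propionyl than in both acetyl libraries, beside 57.3% of all genes, and 0 less (4.87%). The 7 were ACSS1, ACSS2, ACSS3, ACLY, PCCB, ACADS and CRAT, and the median difference was 2.95 percentage points, beside 3.41 over all genes. On the percentile scale the median difference of the 10 genes was −5.04, the opposite sign, with 3 genes higher (ACSS1, ACADS and CRAT, beside 19.5% of all genes) and 5 lower (34.1%). At H3K18, 0 of 10 were covered more by propionyl (11.7% of all genes) and 3 less (11.6%), which were PCCA, PCCB and MMUT. The median difference there was −2.30 percentage points with H3K18ac NaPr replicate 1 and 0.036 without it. Against the other replicate alone, ACSS1, ACLY and ACSM3 were covered more by propionyl (43.7% of all genes) and PCCA, PCCB and MMUT again less (15.4%). As percentiles 2 genes were higher (ACSS1 and ACSM3, beside 18% of all genes) and 4 lower (15.2%). ACSS1 was the only one of the 10 higher as a percentile at both histone sites. The share of all genes higher at both is not given here, so this is a description and does not set ACSS1 apart. Tag and mark coincide here, as stated above.

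Butyryl libraries and the acetyl libraries labelled NaBu carry the same tag. At H3K18, 8 of 10 genes were covered less by butyryl than by acetyl regions in both replicates, beside 59.9% of all genes, and 0 more (0.115%). The exceptions were ACSS3 and ACADS, and the median difference was −2.31 percentage points, beside −1.38 over all genes. At H4K12, 1 of 10, ACSS2, was covered less by butyryl (17.9%) and 0 more (0.11%). Without H4K12ac NaBu replicate 2, 7 of 10 were covered less (69% of all genes). As percentiles, at H3K18 3 genes were lower (27% of all genes) and 2 higher (18.3%), and at H4K12 0 were lower (7.3%) and 1 higher (7.29%). The butyryl lists were among the shortest, with 22059 and 22497 regions for H3K18bu and 9642 and 8158 for H4K12bu, against 116459 and 60344 for H3K18ac. With equal numbers of regions, the H3K18 median difference was −0.0222.

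The next comparison set acetylation after each salt beside that of cells without it. For NaPr, whose acetyl libraries share a tag with the untreated ones, H4K12ac was lower in 7 of 10 genes (64.2% of all genes) and higher in 1 (5.38%), ACSS3. The 7 were ACSS1, ACSS2, ACLY, PCCB, MMUT, ACADS and CRAT. The median difference was −5.09 percentage points, beside −3.21 over all genes, and CRAT had the largest of the 10, −12.4 percentage points. On the percentile scale the median difference was 8.88, the opposite sign, with 6 genes higher (35.8% of all genes) and 2, ACADS and CRAT, lower (20.6%). H3K18ac was higher in 1 gene, PCCA (4.66%), and lower in 0 (14.5%), with a median difference of 0.0707. Without H3K18ac NaPr replicate 1, H3K18ac was lower in 7 genes (60.8% of all genes), higher in PCCA (9.45%), and the median difference was −1.72. As percentiles 3 genes were higher (17.8%) and 1 lower (13.5%).

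For NaBu, H3K18ac was lower than in untreated cells in 4 of 10 genes (56.1% of all genes), which were ACSS1, ACSS2, ACLY and CRAT, and higher in 1 (3.14%), PCCA. H4K12ac was lower in 9 of 10 (71% of all genes), the exception being ACSS3, and higher in 0 (0.29%). The median differences were −0.757 and −6.42 percentage points, beside −1.77 and −4.63 over all genes, and on the percentile scale 6.08 and −15.7. As percentiles H3K18ac was higher in 6 genes (28.7% of all genes) and lower in 1 (19.4%), and H4K12ac higher in 2 (16.2%) and lower in 4 (28.5%). Without H4K12ac NaBu replicate 2, H4K12ac was lower in 9 genes (71%) and higher in ACSS3 (7.7%). With 2 libraries against 2, an exact test cannot give a p below 0.333, so these 8 comparisons are descriptions, and the counts of the 10 genes stood mostly near those of all genes.

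**Figure D5:**
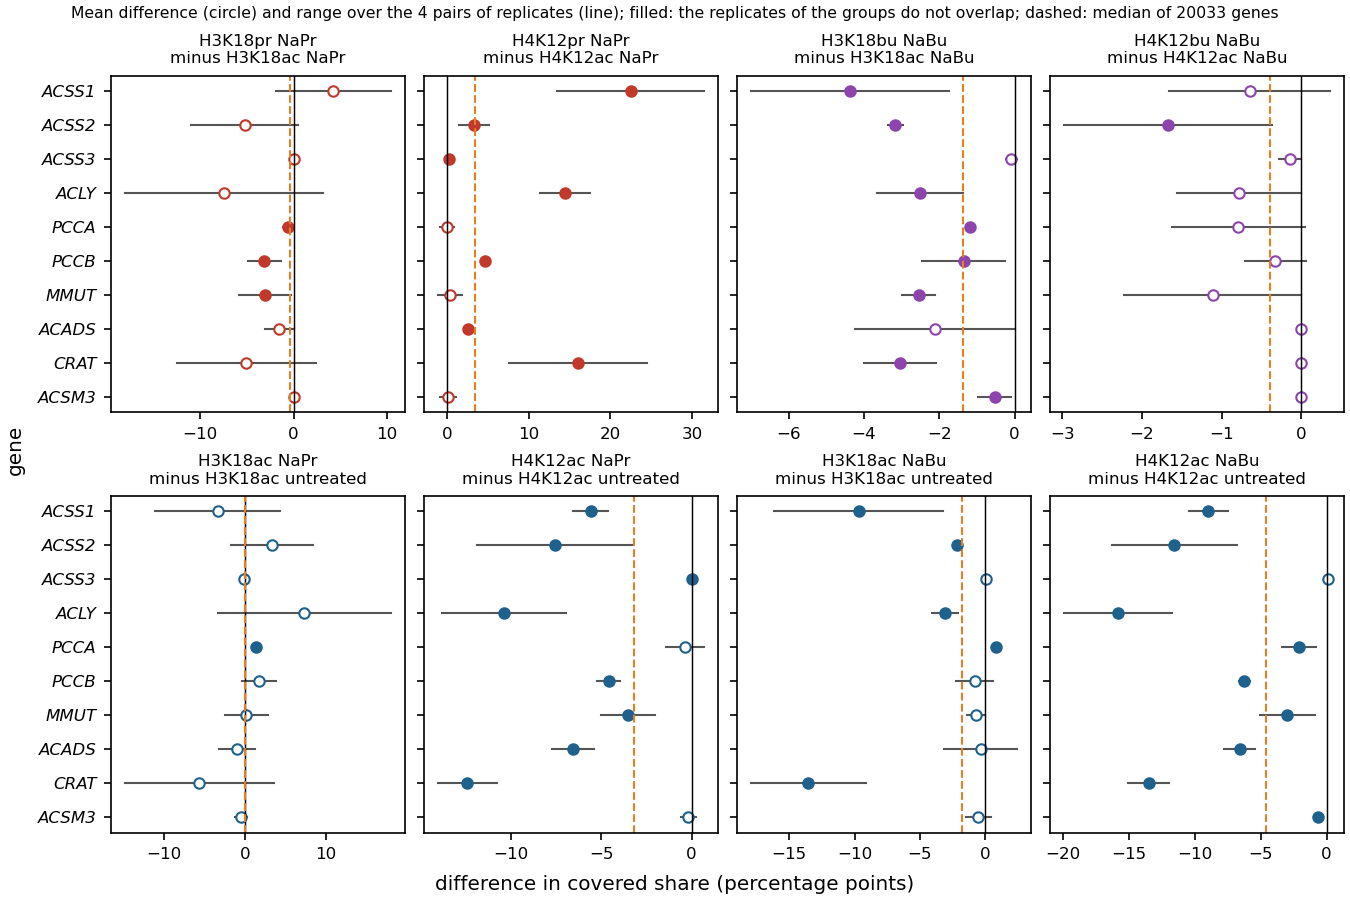
Difference in covered share (percentage points) of each gene in 8 comparisons: circles give the mean difference, lines the range over the 4 pairs of replicates, filled circles mark groups whose replicates do not overlap, and the dashed line is the median of 20033 genes. H4K12pr lies above H4K12ac for 7 genes, and H4K12ac of NaBu cells lies below untreated for 9.

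A single test joined the 16 libraries of treated cells: a 2-sided exact permutation test of acyl against acetyl coverage within the 4 combinations of histone site and treatment, run on all 20033 genes with Benjamini-Hochberg adjustment. It called 0 of the 10 genes in either direction, and 0% of all genes (0 of 20033). The lowest adjusted p over all genes was 0.966. Before adjustment, 2 of the 10 genes and 629 of all genes (3.14%) had an exact p under 0.05. PCCA had an acyl mean of 1.3% and an acetyl mean of 1.94%, a difference of −0.64 ± 0.265 percentage points (SE, exact permutation p = 0.0340, adjusted p = 1). MMUT had 0.464% and 2.06%, a difference of −1.60 ± 0.677 (SE, exact permutation p = 0.0417, adjusted p = 1). ACSS1 had the largest difference in the other direction, 5.43 ± 2.53 (SE, exact permutation p = 0.184, adjusted p = 1), made up of 22.5 at H4K12 and 4.27 at H3K18 in NaPr cells and −0.649 and −4.38 in NaBu cells. The smallest p this design can give is 0.00154, and at least 619 genes would have to reach it for any to pass the adjusted threshold of 0.05, whereas 24 did.

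A list of 65 other genes of acyl-CoA metabolism was read in the same test. It also had 0 genes called in either direction. Of the 65, 25 had a positive and 38 a negative mean difference, beside 9600 and 9120 of all 20033 genes. The median was −0.177 percentage points, beside 0 over all genes. The highest mean differences were 11 for COASY, which completes the synthesis of coenzyme A, 6.80 for FASN, the fatty acid synthase, and 5.76 for SLC22A5, the plasma membrane carnitine transporter. COASY was covered at 80.9% and 72.6% by H4K12pr and 3.24% and 0% by H4K12ac NaPr, while both butyryl marks covered 0% in all 4 libraries. Its difference was made up of 75.1 at H4K12 and −11.3 at H3K18 in NaPr cells and −1.34 and −18.5 in NaBu cells. For FASN these were 38.1 and −10.0, and 0 and −0.836. For SLC22A5 they were 22.3 and 4.36, and 0.190 and −3.76. The lowest were −2.09 for ACOT8, −1.77 for MCEE and −1.77 for ACADVL. In the group comparisons of covered share, the list had 4 genes higher and 9 lower for H3K18pr against H3K18ac, 44 and 2 for H4K12pr against H4K12ac, 0 and 43 for H3K18bu against H3K18ac, and 0 and 8 for H4K12bu against H4K12ac. Acetylation in NaPr against untreated cells was higher in 3 and lower in 5 for H3K18 and in 2 and 53 for H4K12, and in NaBu against untreated cells in 0 and 51, and 0 and 58. The shares of all genes are those given above for the same comparisons, such as 57.3% higher for H4K12pr and 71% lower for H4K12ac of NaBu cells.

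For each of the 10 genes, the gene with the most similar profile over the 20 immunoprecipitated libraries was sought. Taking, for each of the 10, the gene on another chromosome with a window of 0.5 to 2 times the length and the highest Pearson correlation of percentiles, ACLY was matched by RNF168 (r = 0.991), ACSS1 by SLC16A3 (r = 0.964), PCCA by THADA (r = 0.975) and MMUT by KLHL26 (r = 0.856). The matches of ACSS2, ACSS3, PCCB, ACADS, CRAT and ACSM3 were BICRAL, EDIL3, POLR1C, KCNK17, ENSG00000260272 and CAPN13, with r between 0.907 and 0.986. Each match was the highest of 1163 to 7151 candidate genes, so a high r was favoured by the search. The points also share libraries and list lengths, so these values are descriptions.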

How the data were processed

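The data were 23 ChIP-seq region lists in narrowPeak format, 20 immunoprecipitated and 3 input. Per the submitters' processing notes and the study's methods, reads were demultiplexed with bcl2fastq 2.17.1, trimmed with cutadapt 1.8.1 and aligned to hg38 with Bowtie2 2.3.1, and the authors called regions for each library separately with MACS2 2.1.0 at p 0.01. The control used for the input lists is not given in the sources used here. The deposited lists hold a score, a fold enrichment, a −log10 p and a −log10 q for each region, as the authors' peak caller wrote them. Read counts and sequencing depth are unknown, so no counting interval is given. The p-values measure only the spread between these libraries, which may be technical.

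All 2187390 regions lay inside the hg38 chromosomes. With Python 3.11.15, numpy 2.4.6, pandas 2.3.3 and scipy 1.17.1, the percent of each GENCODE v44 gene window (body and 1 kb on both sides) covered by regions was computed, counting a region from 1 bp of overlap, and percentiles were taken within each library over 20033 protein-coding genes. A start site was occupied when a region lay within 500 bp. Groups came from the labels, also for the 4 acetyl lists labelled NaBu whose names carry cnt. A 2-sided exact permutation test over 1296 arrangements within 4 strata, with Benjamini-Hochberg adjustment compared acyl with acetyl libraries, and the code was tested on simulated data. All 10 genes were named, and of the 65 other acyl-CoA genes the 3 highest and 3 lowest mean differences. The 10 genes, the list of 65, the markers and the tests were chosen with earlier results of these data known. Alternatives were equal numbers of regions (8158 per library), regions with q under 0.05, gene bodies without flanks, leaving out regions over the input, percentiles, single treatments, each replicate left out and a replicate block.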

Additional observations from a re-analysis of the deposited data

Results flagged for a closer look

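For 3 genes, every pair of libraries moved one way in 1 setting and the opposite way in another, and in each case the difference between the settings was not tested. ACSS2 was covered 3.32 percentage points more by H4K12pr than by H4K12ac in NaPr cells and −1.67 by H4K12bu against H4K12ac in NaBu cells, a gap of 4.99. PCCA coverage in NaBu against untreated cells was 0.798 for H3K18ac and −2.13 for H4K12ac, a gap of 2.93. PCCB coverage by propionyl against acetyl marks in NaPr cells was −3.13 at H3K18 and 4.66 at H4K12, a gap of −7.78. These are covered shares, and as percentiles within each library none of the 3 contrasts kept opposite directions in every pair. ACSS2 was then lower under H4K12pr (59.4 and 65.5) than under H4K12ac (86.6 and 85.1), and under H4K12bu (85.1 and 88.2) it overlapped H4K12ac of NaBu cells (81.7 and 85.5). PCCA was higher for H4K12ac of NaBu cells (65.6 and 76.7) than of untreated cells (40.7 and 36.2). The 76.7 came from 2 regions over 0.171% of the window, in a list where 25.7% of all genes had a region. The H4K12bu percentiles of ACSS2 came from 1 region in each library. PCCB overlapped at H4K12 (49.7 and 60.0 against 60.3 and 56.7). List lengths and tags differ as described above, and their part was not tested.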

How the results depend on the processing

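Values are median differences in covered share over the 10 genes, in percentage points unless named as percentiles. The cause of each change was not tested. H4K12pr minus H4K12ac (2.95) became 0 with equal numbers of regions, 3.58 with q under 0.05, 2.00 without regions over the input and −5.04 as percentiles, and ran from 2.31 to 3.58 with single libraries left out. H3K18bu minus H3K18ac (−2.31) became −0.0222 with equal numbers, and ran from −2.78 to −1.38. H4K12bu minus H4K12ac (−0.488) became 0 as percentiles, and ran from −1.02 to 0. H3K18pr minus H3K18ac (−2.30) became 0 with equal numbers and −0.924 without regions over the input, and ran from −3.98 to 0.036, the last without H3K18ac NaPr replicate 1. H3K18ac of NaPr minus untreated cells (0.0707) became −0.444 as percentiles, and ran from −1.72 to 1.09. H4K12ac of NaPr minus untreated (−5.09) became 0 with equal numbers, −4.24 without flanks, −3.62 without regions over the input and 8.88 as percentiles, and ran from −5.47 to −4.47. H3K18ac of NaBu minus untreated (−0.757) became 6.08 as percentiles, and ran from −2.02 to −0.467. H4K12ac of NaBu minus untreated (−6.42) became 0 with equal numbers, −5.08 without flanks and −5.31 without regions over the input, and ran from −6.90 to −5.93. Of 100 gene and group pairs, 39 had a start site occupied in both replicates. These became 9 with equal numbers, 25 without regions over the input and 10 when the region had to hold the start base. With the start of the gene record they became 36, with H3K18pr going from 3 to 5 genes and H3K18ac NaPr from 7 to 4. The gene record starts 141665, 153771 and 11591 bp before the canonical start in ACSS3, ACSM3 and ACLY.

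The acyl minus acetyl difference changed sign for ACSS1 as percentiles (−0.791) and in NaBu cells (−2.51), ACSS3 in NaBu cells (−0.113), and ACLY with equal numbers (−0.271), as percentiles (−16.2) and in NaBu cells (−1.65). It also did for PCCA as percentiles (1.45), for PCCB with q under 0.05 (0.276), without flanks (0.0327) and without regions over the input (0.329), for ACADS without regions over the input (0.132), and for CRAT with equal numbers (−1.41), as percentiles (−10.5) and in NaBu cells (−1.52). With a replicate block the test again called 0 genes (PCCA exact p = 0.0391, MMUT 0.0625, adjusted p = 1). Replicate differences of the paired groups correlated at 0.0541 to 0.315 across genes, so the numbers were not taken to pair the samples.

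Counts of genes higher or lower in all pairs of libraries on the percentile scale, or without the 2 libraries that stood apart, were chosen as alternatives after seeing the data. As percentiles, the counts higher and lower were 2 and 4 for H3K18pr against H3K18ac (0 and 3 as covered share), 3 and 5 for H4K12pr against H4K12ac (7 and 0), 2 and 3 for H3K18bu (0 and 8), 1 and 0 for H4K12bu (0 and 1), 3 and 1 for H3K18ac NaPr against untreated (1 and 0), 6 and 2 for H4K12ac NaPr (1 and 7), 6 and 1 for H3K18ac NaBu (1 and 4), and 2 and 4 for H4K12ac NaBu (0 and 9). Without H3K18ac NaPr replicate 1, H3K18pr was higher in 3, and H3K18ac NaPr lower than untreated in 7. Without H4K12ac NaBu replicate 2, H4K12bu was lower in 7, and H4K12ac NaBu higher than untreated in 1.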
